A study of Manihot esculenta with 44 samples.

Results

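Cassava (Manihot esculenta) carries a large family of transcription factors of the ethylene response factor (ERF) and dehydration-responsive element binding (DREB) type, and their transcripts were measured by RNA sequencing of field-grown leaves. The genes were taken from the functional description in the deposited tables: a gene was included where that text names an Integrase-type DNA-binding protein, an ethylene-responsive factor or element binding factor, an ERF domain, a DREB protein or a C-repeat binding factor. Of 34120 gene IDs, 152 were included in this way, and 84 of them passed the filter on low levels and were tested. The other 68 were not tested: 37 of these were listed at 0 in all 44 libraries, and the highest level any of the 68 reached in a library was 12.5.

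All plants were of KU50, a variety popular in Southeast Asia, raised from woody stem cuttings at one field in Hanoi and one in the province of Bac Kan, both in Vietnam. The submitters describe the first as a general field without flowering and the second as a mountainous area with flowering. Leaves were collected in 2019 in Hanoi on 24 May, 13 July, 7 August and 10 October, and in Bac Kan on 31 May, 29 June, 26 July, 15 August, 11 September, 5 October and 30 October, with 4 libraries at each of the 11 site and date combinations. These sites and dates are those of the table named in the description in all 44 samples. They are also those of the sample titles, except that the titles for Bac Kan on 5 October give no valid date. The labels' separate fields for site and date disagree with them: both fields equal the title in 4 of the 44 samples, and the site field differs in 16. Every comparison of site or date below rests on the titles, and for the date of Bac Kan on 5 October on the description. With one field per site, site and field cannot be told apart, and the labels do not say that the libraries of a group came from separate plants, so p-values measure the spread between libraries, which may be technical. The 4 dates in Hanoi were each set against the nearest date in Bac Kan, giving a late May pair 7 days apart, a July pair 13 days apart, an August pair 8 days apart and an October pair 5 days apart, in which Bac Kan was sampled first.

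ERF and DREB proteins bind DNA through a single AP2 domain. ERF proteins are known for binding the GCC box of defence and ethylene-induced genes, and DREB proteins for binding the dehydration-responsive or C-repeat element of genes induced by cold and drought. Some members activate transcription and others, which carry an EAR motif, repress it, and in Arabidopsis leaves many of their transcripts rise rapidly and for a short time after ethylene, jasmonate, wounding, cold or touch. Group numbers I to X below follow the Arabidopsis classification and were assigned from the best Arabidopsis hit in the deposited tables, as were all gene names and roles. The label did not cover every gene equally well. Among the 152 were 19 genes of the related AP2 subfamily, 2 of the RAV and soloist type, and 11 whose best hit was placed in none of these groups, among them ubiquitin ligases that act on DREB2A (DRIP1 and DRIP2) and a nuclear protein (AT4G20880). Conversely, 52 genes with a best hit in the AP2/ERF family had other descriptions and were not included.

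Levels are FPKM, fragments scaled to transcript length and sequencing depth, summed over the transcripts of a gene and rescaled so that each library sums to 1000000. Differences are on the scale of log2(level + 1), which understates the change of genes with low levels, and are given as Bac Kan minus Hanoi with their standard error after the ± sign. Tests were limma's moderated tests over the 23405 genes that passed the filter, called at a Benjamini-Hochberg adjusted p below 0.05. The deposited FPKM of the libraries summed to between 664145 and 804362, and 18275 to 19777 genes were at 1 or more. Read depth was not given in the sources used here. The summed level of 12 leaf mesophyll marker genes was 9623 to 31135 per library, with 1 of the 12 at 0 in all libraries. In the late May pair it was 9623 to 14665 for Hanoi and 14036 to 16240 for Bac Kan, and in the August pair 14596 to 16262 and 15578 to 23056, with overlap in both. In the July pair it was 20721 to 31135 for Hanoi and 16531 to 19449 for Bac Kan, and in the October pair 17407 to 20458 and 9854 to 14247, every Hanoi library being higher in both. Of 14 floral organ genes (2 at 0 throughout) the summed level was 2.3 to 68.6, and of 8 genes of dividing cells it was 0 to 12.5. For 15 secondary wall genes the sum in the late May pair was 5.87 to 12.1 for Hanoi and 0.627 to 1.76 for Bac Kan. The sites overlapped in the other pairs. In leaf RNA, fewer cells of a type and less RNA per cell cannot be told apart, and the part of leaf composition in the results below was not tested.

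By their summed level, the included genes had their highest mean in Hanoi on 24 May. The 11 genes placed in no group supplied 383 of that mean of 2936. Summed over the 152 genes, the level there was 2906, 2744, 3419 and 2674 in the 4 libraries, and no library of any other date in Hanoi exceeded 2116. In Bac Kan on 31 May the sums were 1679, 1244, 833 and 1086. All 4 Hanoi libraries of the late May pair stood above all 4 from Bac Kan. The lowest sums in Hanoi came on 13 July, 851, 693, 882 and 868, and overlapped with the 979.6, 794, 822 and 792 of Bac Kan on 26 July. Later in the season the Hanoi sums were 1559.8 to 1805 on 7 August and 1745 to 2116 on 10 October, against 902 to 1702 on 15 August and 1028 to 1125 on 5 October in Bac Kan. The August groups overlapped and the October groups did not. Within Bac Kan the libraries of 29 June were widely spread, at 1538, 2725, 1007 and 2145, and 15 of the 25 genes with a mean of 10 or more on that date were highest in library 2 and 15 were lowest in library 3.

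**Figure D1:**
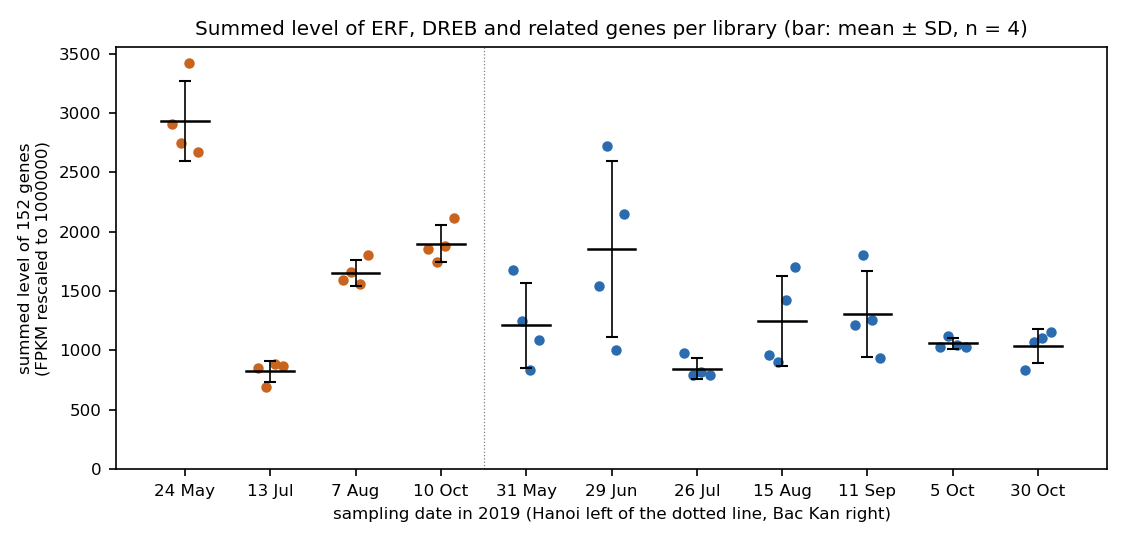
Summed level of the 152 ERF, DREB and related genes (FPKM rescaled to 1000000 per library) at each date in Hanoi (left of the dotted line) and Bac Kan (right); circles are libraries and bars are the mean ± SD of 4. The 4 libraries of Hanoi on 24 May lie between 2674 and 3419, above those of every other group except that library 2 of Bac Kan on 29 June, at 2725, lies within their range.

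A few genes made up much of these sums: the 5 most abundant genes of a group supplied between 32.8% (Bac Kan, 30 October) and 58.2% (Bac Kan, 29 June) of it. The most abundant over all 44 libraries were MANES_14G039000 and MANES_06G131200, both with best hit ERF105, a cold- and stress-induced activator of group IX. With them came MANES_02G042400 (ERF6, an activator of stress and reactive oxygen responses), MANES_06G131100 (ERF1A, one of the first ERF proteins described as a GCC-box activator) and MANES_03G106300 (ERF4, an EAR-type repressor of group VIII). The order changed with date. ERF105 led in Hanoi on 24 May with a mean of 526, and ERF1A, which was at 40.0 there, led on 13 July with 129 and on 7 August with 431. Of the 84 tested genes, 26 (31%) had their highest group mean in Hanoi on 24 May, against 17.5% of all genes tested, and 12 (14.3%) had it in Hanoi on 7 August, against 6.68%. Bac Kan on 30 October held the highest mean of 7 (8.33%), against 16.3% of all genes.

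**Figure D2:**
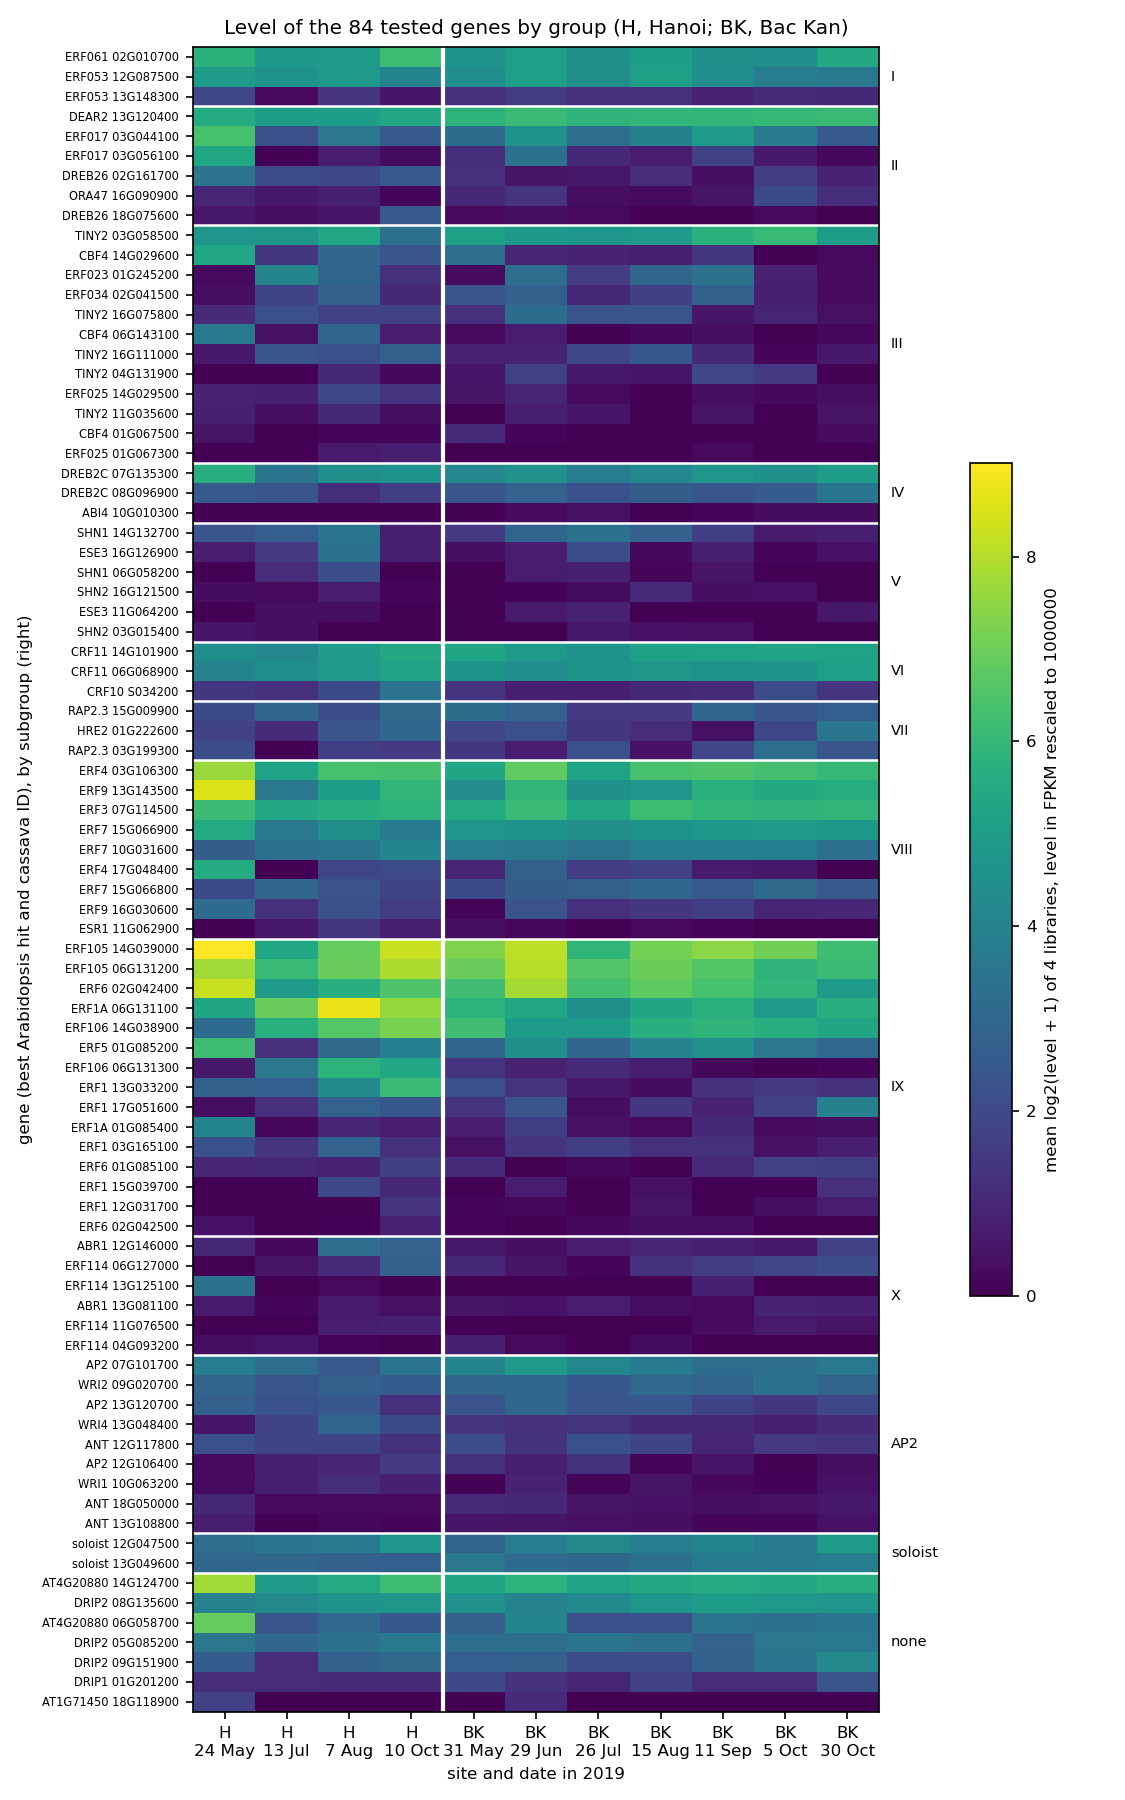
Mean log2(level + 1) of 4 libraries for the 84 tested genes (rows, by subgroup) at the 11 site and date combinations (columns; H, Hanoi; BK, Bac Kan). Of group VIII, the rows of ERF9 (MANES_13G143500) and of both ERF4 genes are brightest in the first column, Hanoi on 24 May. That date held the highest mean of 26 of the 84 genes.

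Across the 4 pairs, members that differed were more often lower in Bac Kan than higher. In late May, 26 of the 84 were called (31%, against 28.7% of all genes tested): 5 were higher in Bac Kan (5.95%, against 16.1%) and 21 lower (25%, against 12.6%). The July pair had 3 higher (3.57%, against 5.17%) and 4 lower (4.76%, against 3.66%), 8.33% in all against 8.84%. In August 3 were higher (3.57%, against 6.4%) and 13 lower (15.5%, against 8.11%), 19% in all against 14.5%. The October pair had 5 higher (5.95%, against 10.5%) and 14 lower (16.7%, against 13.6%), 22.6% in all against 24.2%. In July and October the mesophyll marker sum given above was also lower in every Bac Kan library than in any from Hanoi, and its part in these counts was not tested. The share called was near that of all genes in late May, July and October, and the direction was mostly down in every pair but July. Without library 2 of Hanoi on 13 July the July count of higher genes was 1 instead of 3, and without library 3 of Hanoi on 7 August the August count was 1 instead of 3. For the late May, July, August and October pairs in this order, the median difference of the 84 genes was -0.14, 0.03, -0.19 and -0.27, and that of all genes 0.06, 0.06, -0.06 and -0.05.

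A second measure, not stricter in every pair, was that no library of one site reached the range of the other. By it 18 genes were lower in Bac Kan in late May and 4 higher, where the background was 9.61% and 11.3% of all genes. In July 6 were lower and 5 higher (background 5.19% and 7.46%), in August 15 and 3 (9.28% and 7.66%) and in October 16 and 5 (16.1% and 11.8%). Averaged over the 4 pairs, 28 genes were lower in Bac Kan (33.3%, against 12.7% of all genes) and 5 higher (5.95%, against 12.5%), 39.3% in all against 25.2%. That average treats libraries of one date as independent. Another contrast took the 11 date means as the samples and set the 7 dates of Bac Kan against the 4 of Hanoi, without pairs. There limma called 0 members and 6 of all genes tested. In the same fit 15 members (3 higher and 12 lower) and 2536 of all genes had an unadjusted p below 0.05.

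The genes involved differed between pairs. The test that the 4 site differences are equal called 36 of the 84 (42.9%, against 38.1% of all genes), and 17 when the late May pair was left out (20.2%, against 18.9%). In no pair were 35 of the 84 called. No gene was lower in all 4 pairs. Lower in July, August and October were 3 genes of group IX: MANES_06G131100 (ERF1A), MANES_06G131300 (ERF106) and MANES_13G033200 (ERF1). Higher in 2 pairs were another 3, namely MANES_13G120400 (DEAR2) and MANES_07G101700 (AP2) in July and August and MANES_03G199300 (RAP2.3) in July and October. MANES_14G038900 (ERF106) was the one gene called in opposite directions, higher in Bac Kan in late May and lower in August and October.

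**Figure D3:**
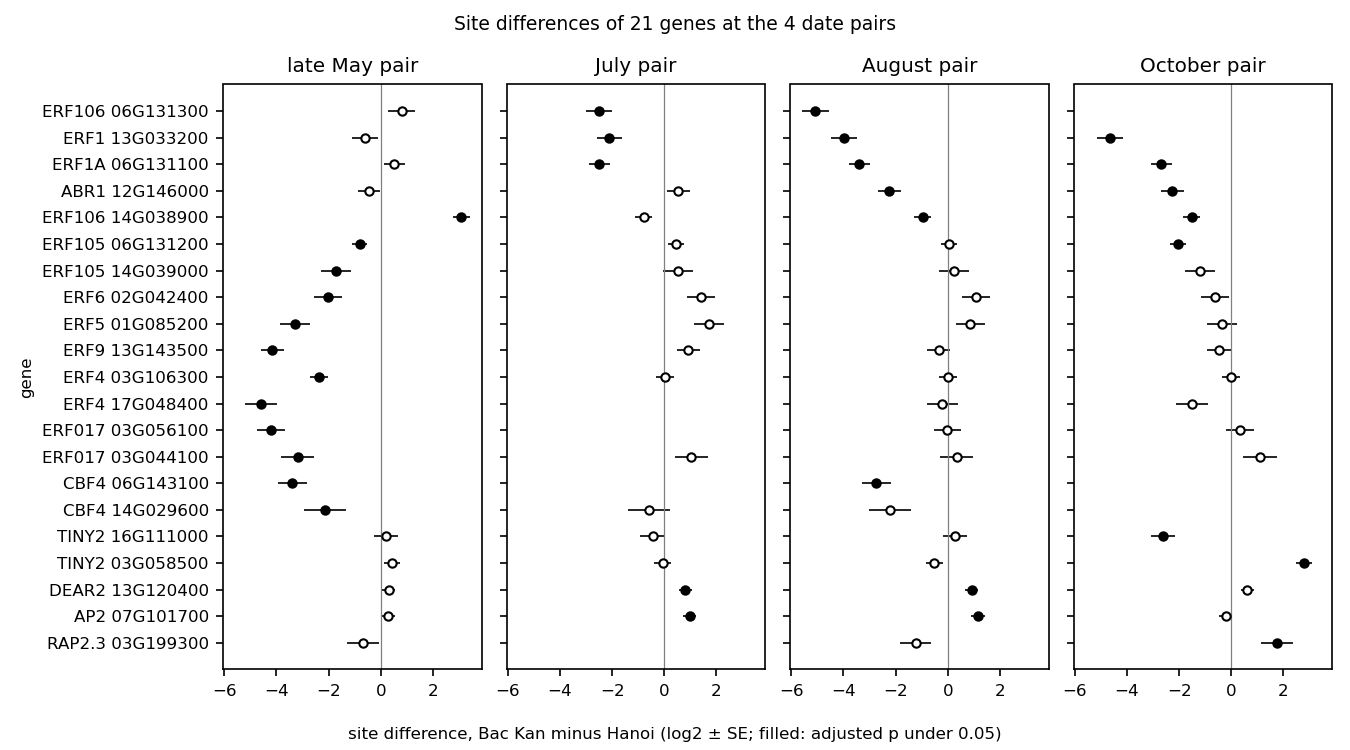
Site difference (Bac Kan minus Hanoi, log2 ± SE from limma) of 21 genes at the 4 date pairs; filled circles have an adjusted p below 0.05, and no point is drawn where a group was at 0 in all 4 libraries. ERF106 (MANES_14G038900) lies at 3.09 in late May and at -1.51 in October, and ERF1 (MANES_13G033200) moves from -0.60 in late May to -4.64 in October.

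Group IX holds the ERF activators best known from defence and ethylene signalling, and of its 29 members 15 were tested. Between sites, 6 of the 15 were lower in Bac Kan in late May and 1 higher, 3 were lower in July, 6 in August and 5 in October, with none higher in those 3 pairs. Of all genes, 12.6%, 3.66%, 8.11% and 13.6% were called lower in the 4 pairs, and 16.1%, 5.17%, 6.4% and 10.5% higher. MANES_13G033200 has the best hit ERF1, which in Arabidopsis joins the ethylene and jasmonate pathways to turn on defensin genes. It stood at 69.7, 55.2, 75.3 and 76.3 in Hanoi on 10 October, and at 0, 3.34, 1.94 and 3.77 in Bac Kan on 5 October. Every Hanoi library was far above every Bac Kan library (log2 difference -4.64 ± 0.49, adjusted p = 2.36e-09). In August it stood at 7.84, 28.1, 31.4 and 15.5 in Hanoi on 7 August and at 0.417, 0, 0 and 0.569 in Bac Kan on 15 August, again without overlap (log2 difference -3.98 ± 0.49, adjusted p = 1.53e-07), and in July at 4.66, 6.52, 6.24 and 4.62 in Hanoi on 13 July and at 1.22, 0, 0 and 1.3 in Bac Kan on 26 July (log2 difference -2.10 ± 0.49, adjusted p = 0.00402). The July groups did not overlap. In late May the levels were 3.81, 11.6, 4.31 and 6.23 in Hanoi and 1.85, 6.76, 3.96 and 3.08 in Bac Kan, and the difference did not pass (log2 difference -0.60 ± 0.49, adjusted p = 0.4).

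MANES_06G131100 (ERF1A) and MANES_06G131300 (ERF106, a close relative of ERF105) are neighbours by ID number, with MANES_06G131200 (ERF105) between them. ERF1A stood at 410.2, 537, 389 and 388 in Hanoi on 7 August and at 22.2, 25.4, 60.1 and 72.5 in Bac Kan on 15 August. Every Hanoi library was above those from Bac Kan (log2 difference -3.39 ± 0.40, adjusted p = 6.5e-08). In October it was at 171, 235, 238 and 139.8 in Hanoi on 10 October and at 25.8, 36.8, 29.1 and 25.1 in Bac Kan on 5 October, and in July at 81.4, 116, 174 and 145 in Hanoi on 13 July and at 18.4, 21.1, 26.6 and 20.1 in Bac Kan on 26 July. All Hanoi libraries of both pairs were above those from Bac Kan, with a log2 difference of -2.69 ± 0.40, adjusted p = 2.35e-06 in October and -2.49 ± 0.40, adjusted p = 4.72e-05 in July. In late May the direction was the other way, 48.6, 26.1, 48.9 and 36.1 in Hanoi against 21, 30.5, 102 and 144 in Bac Kan, and the difference did not pass (log2 difference 0.51 ± 0.40, adjusted p = 0.371).

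The ERF106 gene MANES_06G131300 was at or below 8.77 in every Bac Kan library. It stood at 72.1, 51.1, 50.7 and 51.2 in Hanoi on 7 August and at 36.8, 47.1, 74.7 and 22.3 in Hanoi on 10 October, whereas it was at 0, 0, 1.41 and 2.27 in Bac Kan on 15 August and at 0 in all 4 libraries of Bac Kan on 5 October. In August the difference was -5.08 ± 0.51, adjusted p = 2.21e-09; for October no fold is given against libraries listed at 0 (adjusted p = 1.56e-10). In July the levels were 9.67, 7.62, 18.4 and 9.93 in Hanoi against 2.26, 2.39, 0 and 0.692 in Bac Kan (log2 difference -2.51 ± 0.51, adjusted p = 0.00095), and in late May 0, 0, 2.75 and 0.31 against 1.47, 0, 0.861 and 8.77 (log2 difference 0.80 ± 0.51, adjusted p = 0.26). The site difference of this gene changed between pairs (adjusted p = 1.42e-08, limma F test with 3 degrees of freedom).

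ERF105, between these genes, was lower in Bac Kan in late May and October. MANES_06G131200 stood at 212, 216, 252 and 287 in Hanoi on 10 October and at 50.2, 56.9, 61.6 and 59.5 in Bac Kan on 5 October. Every Hanoi library was above those from Bac Kan (log2 difference -2.06 ± 0.30, adjusted p = 1.97e-06). In late May it was at 256, 240.1, 241 and 153 in Hanoi on 24 May and at 240.5, 161, 71 and 84.2 in Bac Kan on 31 May (log2 difference -0.81 ± 0.30, adjusted p = 0.0401), and the July and August differences did not pass, at 0.46 and 0.05. The late May call was lost with only the groups compared in the fit or without library 3 or 4 of Bac Kan on 31 May or library 1 or 2 or 3 of Hanoi on 24 May (adjusted p = 0.0833 to 0.22). The second ERF105 gene, MANES_14G039000, was at 634, 443, 624 and 401 in Hanoi on 24 May and at 385, 253, 54.1 and 108 in Bac Kan on 31 May. It was lower in Bac Kan in late May (log2 difference -1.73 ± 0.57, adjusted p = 0.0193) and its October difference of -1.19 did not pass (adjusted p = 0.133). The late May call of this gene was lost with only the groups compared in the fit or without library 3 or 4 of Bac Kan on 31 May (adjusted p = 0.0603 to 0.124).

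Next to that gene by ID number lies a second ERF106, MANES_14G038900, whose site difference turned over the season. On the late May dates it stood at 2.6, 7.11, 8.37 and 22.3 in Hanoi on 24 May and at 52.4, 60.6, 80.1 and 125 in Bac Kan on 31 May. The groups did not overlap and Bac Kan was higher (log2 difference 3.09 ± 0.32, adjusted p = 2.19e-09). In October it was at 152, 149, 155 and 132 in Hanoi on 10 October and at 61.3, 47.2, 33.1 and 68.3 in Bac Kan on 5 October. There every Hanoi library was higher (log2 difference -1.51 ± 0.32, adjusted p = 0.000483). August gave a smaller difference in the same direction as October (log2 difference -0.97 ± 0.32, adjusted p = 0.0381), and July did not pass (log2 difference -0.79 ± 0.32, adjusted p = 0.133). The August call was lost at a pseudocount of 0.1 or without any single library of the 8 (adjusted p = 0.0515 to 0.0999). The change between pairs had adjusted p = 6.05e-10, the smallest of the 84 genes, and did not pass without the late May pair. These neighbours thus lay on opposite sides in late May, ERF105 lower and ERF106 higher in Bac Kan.

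**Figure D4:**
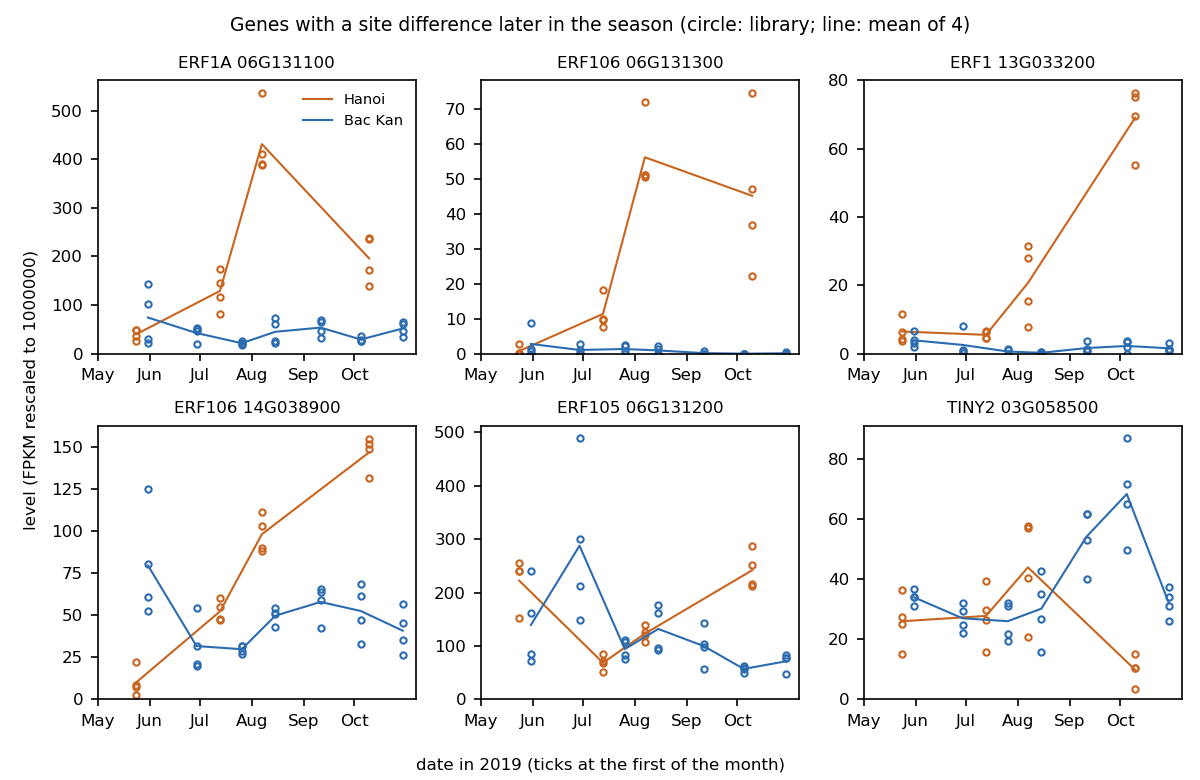
Level by date (FPKM rescaled to 1000000; circles, libraries; lines, means of 4) of 6 genes in Hanoi and Bac Kan. ERF1A (MANES_06G131100) reaches 537 in a Hanoi library on 7 August while the Bac Kan libraries of 15 August stay at or below 72.5, and TINY2 (MANES_03G058500) is the panel in which Bac Kan on 5 October is the highest group.

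Further activators of group IX differed in late May. MANES_02G042400 (ERF6) stood at 441, 254, 332 and 239 in Hanoi on 24 May and at 189, 129, 33.3 and 37.8 in Bac Kan on 31 May. Every Hanoi library was above those from Bac Kan (log2 difference -2.03 ± 0.54, adjusted p = 0.00416). The ERF6 call was lost with only the groups compared in the fit (adjusted p = 0.0586). MANES_01G085200 (ERF5, a chitin- and stress-responsive activator) was at 57.8, 76.9, 146 and 45.6 in Hanoi on 24 May and at 18.4, 13.5, 4.93 and 1.1 in Bac Kan on 31 May (log2 difference -3.28 ± 0.57, adjusted p = 2.62e-05), and its neighbour MANES_01G085400, a second ERF1A, was at 9.5, 19.5, 20.2 and 16.7 in Hanoi on 24 May and at 0.746, 3.09, 0 and 0 in Bac Kan on 31 May (log2 difference -3.37 ± 0.53, adjusted p = 6.26e-06). No Bac Kan library of ERF5 or of this ERF1A reached the lowest from Hanoi. Other ERF1 homologues were at low levels. MANES_03G165100 was at 4.98, 6.52, 5.71 and 7.74 in Hanoi on 7 August and at 0.898, 0.551, 2.1 and 2.45 in Bac Kan on 15 August (log2 difference -1.59 ± 0.55, adjusted p = 0.045), and was lower in late May as well (log2 difference -1.89 ± 0.55, adjusted p = 0.00833). Its August call was lost at a pseudocount of 0.1, with no filter, with the most abundant transcript only or without any single library except library 4 of Bac Kan on 15 August (adjusted p = 0.05 to 0.273). Its late May call was lost with only the groups compared in the fit or without library 2 of Hanoi on 24 May (adjusted p = 0.0522 to 0.0619). MANES_15G039700, at 0 in all libraries of 6 groups, was at 1.17, 2.56, 3.91 and 4.84 in Hanoi on 7 August and at 0, 0, 0 and 2.21 in Bac Kan on 15 August (log2 difference -1.53 ± 0.42, adjusted p = 0.00946). This call was lost with only the groups compared in the fit (adjusted p = 0.0896). MANES_12G031700 reached 5.7 in a library of Hanoi on 10 October and passed in no pair, and 2 further ERF1 homologues, MANES_08G137700 and MANES_09G149000, were not tested.

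Few genes that ERF1 and its relatives are known to induce were called, and the called ones lay on both sides. Of 26 defence genes downstream of group IX, matched by best hit, 18 were tested: 0 were higher and 2 lower in Bac Kan in late May, 2 and 0 in July, 2 and 1 in August, and 1 and 2 in October. Their median differences, in the same order, were -0.51, 0.65, 0.32 and 0.29, beside the medians of all genes given above. Calls thus numbered 2, 2, 3 and 3 of the 18, where the background was 28.7%, 8.84%, 14.5% and 24.2% of all genes. So few calls give no direction for the list as a whole. MANES_S012500 (CHIB, a basic chitinase) was at 184 ± 34.3 (mean ± SD, n = 4) in Bac Kan, with 717 ± 126 at the Hanoi field, in late May (log2 difference -1.96 ± 0.24, adjusted p = 6.44e-08), but at 84.5 ± 13.2 and 25.3 ± 9.1 in October (1.75 ± 0.24, adjusted p = 5.12e-07). A second CHIB, MANES_11G106100, was in October at 0 to 4.95 in the Bac Kan libraries, with 31.6 to 54.5 in those from Hanoi (-3.81 ± 0.55, adjusted p = 1.18e-06). The 2 chitinase genes thus lay on opposite sides in October. MANES_08G135100 (PR4, a chitin-binding defence protein) was higher in Bac Kan in July, 40 ± 7.23 against 11.4 ± 2.03 (1.72 ± 0.40, adjusted p = 0.00361).

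Group VIII holds the EAR-type repressors, ERF3, ERF4, ERF7, ERF9 and their relatives, together with the shoot regeneration factor ESR1, and 9 of its 17 members were tested. In late May 4 were lower in Bac Kan and 1 higher, where 12.6% and 16.1% of all genes were. MANES_13G143500 (ERF9, a repressor of defensin genes) stood at 341, 315, 410.0 and 408 in Hanoi on 24 May and at 45.1, 35.6, 4.76 and 17.5 in Bac Kan on 31 May. The groups did not overlap, and the difference was -4.16 ± 0.46, adjusted p = 5.51e-09. At no other date did any library of this gene reach the lowest of Hanoi on 24 May; the range over the 3 later Hanoi dates was 3.57 to 94.2 and over the 7 Bac Kan dates 4.76 to 93.3. Its site difference changed between pairs (adjusted p = 3.93e-07), which did not pass without the late May pair (adjusted p = 0.2).

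Both ERF4 homologues also had their highest mean on that date. MANES_17G048400 stood at 23.5, 52.6, 71.8 and 48.7 in Hanoi on 24 May and at 2.38, 3.03, 0 and 0 in Bac Kan on 31 May (log2 difference -4.60 ± 0.61, adjusted p = 2.83e-07), and it was at 0 in all 4 libraries of Hanoi on 13 July. MANES_03G106300, the more abundant of the pair, was at 181, 169, 251 and 202 in Hanoi on 24 May and at 111, 48.9, 20.6 and 18.2 in Bac Kan on 31 May (log2 difference -2.36 ± 0.34, adjusted p = 1.36e-06), and of its differences at the 3 later pairs, none of which passed, the one farthest from 0 was 0.02. For both genes every Hanoi library of 24 May lay above every Bac Kan library of 31 May. The second ERF9, MANES_16G030600, was lower in Bac Kan on the same dates, 10.2, 8.54, 6.24 and 7.16 in Hanoi against 0.304, 0, 0.236 and 0 (log2 difference -2.99 ± 0.49, adjusted p = 1.06e-05). Of the 3 tested ERF7 genes, repressors known from abscisic acid responses, MANES_10G031600 was in late May higher at the mountain site, 13.9, 10.6, 13.9 and 13.3 against 5.06, 9.34, 2.53 and 6.2 (log2 difference 1.13 ± 0.32, adjusted p = 0.00689). That call was lost with only the groups compared in the fit or without library 3 of Hanoi on 24 May (adjusted p = 0.0515 to 0.0651). MANES_15G066900 had its highest group mean in Hanoi on 24 May, as the ERF4 genes did. It was at 31.6, 30.4, 71.9 and 54.7 there and at 32.9, 16.5, 23.6 and 30.5 in Bac Kan on 31 May, a difference that did not pass (log2 difference -0.79 ± 0.37, adjusted p = 0.109). In October this gene was higher in Bac Kan, 41.1, 36.5, 24.5 and 22.9 against 22.4, 10.7, 9.57 and 8.74 (log2 difference 1.27 ± 0.37, adjusted p = 0.00966). MANES_15G066800, at 0 to 16.1 over all libraries, passed in no pair. MANES_07G114500 (ERF3), at 29.1 to 108 in all libraries, passed in no pair.

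**Figure D5:**
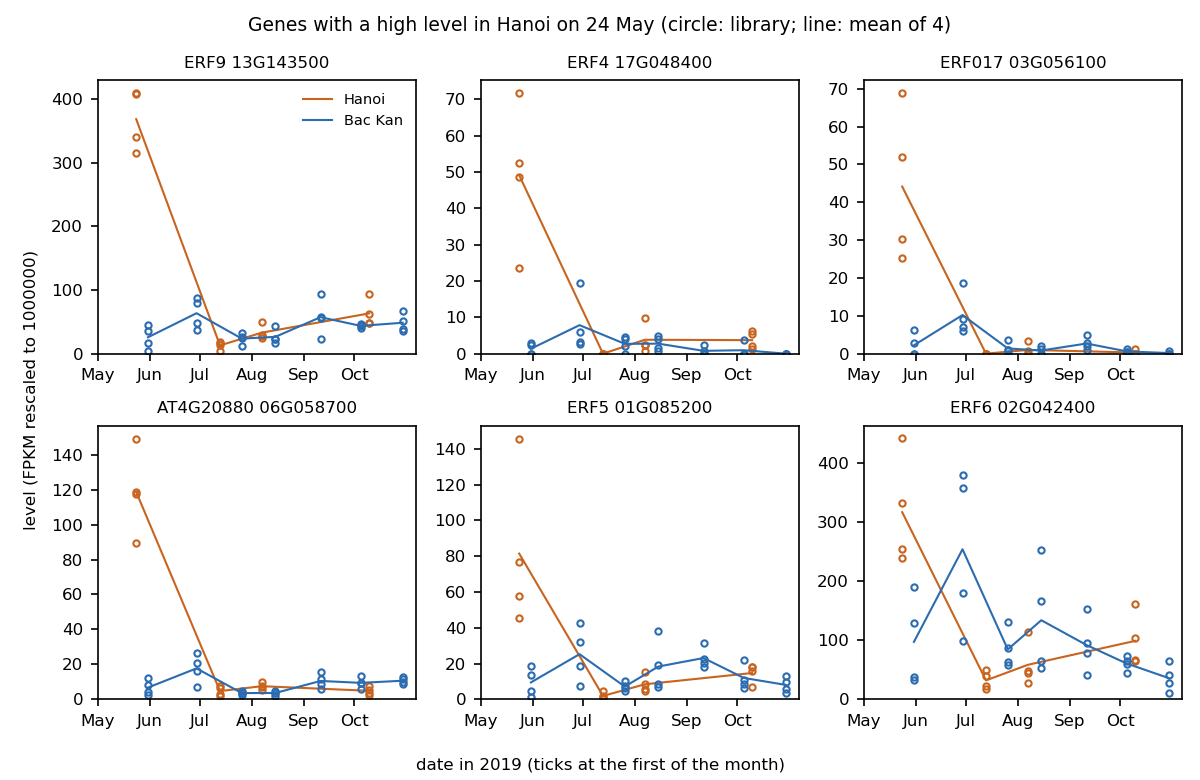
Level by date (FPKM rescaled to 1000000; circles, libraries; lines, means of 4) of 6 genes in Hanoi and Bac Kan. For ERF9 (MANES_13G143500) the libraries of Hanoi on 24 May lie at 315 to 410.0 and those of Bac Kan on 31 May at 4.76 to 45.1. The 6 genes were chosen for a high level at the first Hanoi date, where each has its highest group mean.

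The DREB side of the family comprises groups I to IV. Group II, of the A-5 type, had 6 of 10 members tested and 3 lower in Bac Kan in late May, against 12.6% of all genes. Both tested ERF017 genes belonged to these 3. MANES_03G056100 stood at 30.4, 52, 68.9 and 25.4 in Hanoi on 24 May and at 2.69, 6.17, 0 and 0 in Bac Kan on 31 May (log2 difference -4.21 ± 0.53, adjusted p = 9.81e-08), and MANES_03G044100 at 79.3, 71, 135 and 63.1 in Hanoi on 24 May and at 26, 8.45, 1.65 and 9.61 in Bac Kan on 31 May (log2 difference -3.19 ± 0.64, adjusted p = 0.000193). Neither group of Bac Kan libraries reached the lowest from Hanoi. The A-5 factor DEAR2 was higher in Bac Kan at later dates: MANES_13G120400 was at 75.1, 53.8, 52.1 and 61.3 in Bac Kan on 15 August and at 28.1, 50.7, 20.1 and 33.4 in Hanoi on 7 August (log2 difference 0.91 ± 0.26, adjusted p = 0.0113), and 64.2, 44.5, 59.6 and 65.6 against 34.4, 30.5, 32.1 and 33.1 in July (log2 difference 0.81 ± 0.26, adjusted p = 0.0392). The July call for DEAR2 was lost with median-ratio scaling or without any single library except library 2 of Bac Kan on 26 July (adjusted p = 0.0575 to 0.105). Its August call was lost with only the groups compared in the fit or without library 1 of Bac Kan on 15 August or library 3 of Hanoi on 7 August (adjusted p = 0.05 to 0.0817).

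Low-level A-5 genes differed in October. MANES_16G090900 (ORA47, a jasmonate-induced regulator of jasmonate and abscisic acid synthesis) stood at 3.45, 2.21, 2.56 and 4.35 in Bac Kan on 5 October and at 0, 0, 0.45 and 0 in Hanoi on 10 October, with Bac Kan higher (log2 difference 1.89 ± 0.53, adjusted p = 0.00675). MANES_18G075600 (DREB26) was at 8.43, 1.81, 2.05 and 12.7 in Hanoi on 10 October and at 0, 0, 0 and 0.947 in Bac Kan on 5 October, with Bac Kan lower (log2 difference -2.29 ± 0.46, adjusted p = 0.00024). The other DREB26 gene, MANES_02G161700, was at 5.08, 6.85, 12.7 and 20.6 in Hanoi on 24 May and at 2.27, 2.89, 0.443 and 0.541 in Bac Kan on 31 May and was lower in that pair (log2 difference -2.24 ± 0.60, adjusted p = 0.00413). That call was lost at a pseudocount of 0.1 (adjusted p = 0.0781).

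Group III holds the C-repeat binding factors, which in Arabidopsis turn on cold acclimation genes, and the TINY-type factors. Of 24 members 12 were tested. In late May 1 of the 12 was called higher in Bac Kan and 2 lower, where 16.1% and 12.6% of all genes were. The median difference of the 12 in that pair was 0.11. MANES_14G029600 (best hit CBF4, the drought-responsive C-repeat binding factor) stood at 31.5, 31.1, 35.8 and 78.6 in Hanoi on 24 May and at 22.9, 22, 0.963 and 6.48 in Bac Kan on 31 May. The groups did not overlap and Bac Kan was lower (log2 difference -2.14 ± 0.81, adjusted p = 0.0422). That call was lost at a pseudocount of 0.1, with no filter, with only the groups compared in the fit or without any single library except library 1 or 2 of Bac Kan on 31 May (adjusted p = 0.0515 to 0.272). Without library 3 of 31 May the difference was -1.38. In October the levels were 4.75, 6.42, 3.19 and 2.94 in Hanoi, and the gene was at 0 in all 4 libraries of Bac Kan on 5 October (adjusted p = 0.0278). This October result was lost at a pseudocount of 5 or without library 1 or 2 or 3 of Bac Kan on 5 October or library 1 or 2 of Hanoi on 10 October (adjusted p = 0.0502 to 0.111). MANES_06G143100, a second CBF4, was at 4.22, 14.1, 9.82 and 28.8 in Hanoi on 24 May and at 0, 1.12, 0 and 0 in Bac Kan on 31 May (log2 difference -3.39 ± 0.54, adjusted p = 6.82e-06) and at 22.9, 3.23, 1.43 and 13.3 in Hanoi on 7 August and at 0.791, 0, 0 and 0 in Bac Kan on 15 August (log2 difference -2.74 ± 0.54, adjusted p = 0.000327). In both pairs all Hanoi libraries were higher. Another CBF4 gene, MANES_01G067500, reached 4.33 in a library of Bac Kan on 31 May and passed in no pair, and MANES_01G067400, MANES_11G158600 and the CBF1 homologue MANES_08G022000 were not tested.

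TINY2, a relative of TINY, which binds both the dehydration-responsive and the ethylene-responsive element, had homologues that differed in opposite directions in October. MANES_03G058500 stood at 64.8, 71.7, 86.8 and 49.7 in Bac Kan on 5 October and at 10.5, 14.9, 3.39 and 10.6 in Hanoi on 10 October, Bac Kan being higher without overlap (log2 difference 2.79 ± 0.32, adjusted p = 1.27e-08). MANES_16G111000 was at 0, 0.51, 0 and 0 in Bac Kan on 5 October and at 5.03, 4.4, 6.87 and 7.55 in Hanoi on 10 October, Bac Kan being lower without overlap (log2 difference -2.63 ± 0.47, adjusted p = 4.06e-05). In July MANES_01G245200 (ERF023, of the same A-4 type) was at 28, 21.6, 12.2 and 9.3 in Hanoi on 13 July and at 1.06, 7.82, 0 and 3.4 in Bac Kan on 26 July (log2 difference -2.53 ± 0.68, adjusted p = 0.013). That call was lost at a pseudocount of 0.1, with only the groups compared in the fit or without library 3 of Bac Kan on 26 July (adjusted p = 0.0745 to 0.091).

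Groups I and IV were small. Of group I, of the A-6 type, 3 of 5 members were tested, and MANES_02G010700 (ERF061) was lower in Bac Kan in late May, 16.3, 23.3, 26.3 and 33.2 against 54.8, 51, 70.9 and 44.6 (log2 difference -1.15 ± 0.28, adjusted p = 0.00167), and in October, 25.1, 23.7, 13.6 and 21.2 against 65.7, 82.8, 67.5 and 78.2 (log2 difference -1.80 ± 0.28, adjusted p = 5.01e-06). Group IV, which includes the drought and heat regulators of the DREB2 type, had 3 of 9 members tested. MANES_07G135300 (DREB2C) was at 21.2, 59.5, 81.9 and 63.9 in Hanoi on 24 May and at 20.2, 16, 14.2 and 17.5 in Bac Kan on 31 May and was lower in Bac Kan (log2 difference -1.54 ± 0.30, adjusted p = 0.000107). MANES_08G096900, also DREB2C, was at 3.98, 3.33, 10.8 and 5.44 in Bac Kan on 15 August and at 1.57, 2.22, 0 and 2.04 in Hanoi on 7 August and was higher in Bac Kan in August (log2 difference 1.51 ± 0.47, adjusted p = 0.0241). The August call was lost with only the groups compared in the fit or without library 3 of Bac Kan on 15 August or library 3 of Hanoi on 7 August (adjusted p = 0.0909 to 0.147). The 2 DREB2C genes thus each differed in 1 pair, in opposite directions.

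Known targets of CBF and DREB factors were called in both directions in late May. Of those called in the later pairs, most were higher in Bac Kan, with a single call in July. Of 15 cold and dehydration genes matched by best hit, 13 were tested: 4 were higher in Bac Kan and 4 lower in late May, 1 and 0 in July, 3 and 0 in August, and 4 and 1 in October. Their median differences, in the same order, were 0.13, 0.75, 0.28 and 0.20. The background was 16.1%, 5.17%, 6.4% and 10.5% of all genes called higher, and 12.6%, 3.66%, 8.11% and 13.6% called lower. MANES_05G012000 (GolS1, galactinol synthase, the first step to the raffinose sugars) was in October at 129.6 to 363 in the Bac Kan libraries, with 0.586 to 4.59 in those from Hanoi (log2 difference 5.94 ± 0.61, adjusted p = 9.71e-10), and at 91.8 to 251 against 7.98 to 9.28 in late May (3.96 ± 0.61, adjusted p = 3.4e-06). MANES_15G003200 (GolS1) and MANES_08G109300 (GolS2) were also higher in Bac Kan in October (4.45 ± 0.43, adjusted p = 2.44e-10, and 3.04 ± 0.36, adjusted p = 2.63e-08). In July the single called gene was MANES_05G140400 (COR47, a dehydrin), at 2102 ± 252 (mean ± SD, n = 4) in Bac Kan, with 522 ± 115 at the Hanoi field (2.03 ± 0.16, adjusted p = 4.29e-11). All 3 of these galactinol synthase genes were higher in Bac Kan in October. The CBF4 genes MANES_14G029600 and MANES_06G143100 were listed at 0 there on that date. Whether any CBF or DREB gene acts on the galactinol synthase genes was not tested.

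Group V holds the SHINE factors, activators of cuticle and wax synthesis in Arabidopsis, and 6 of 11 members were tested. They were low in all libraries and 2 were lower in Bac Kan in August, against 8.11% of all genes. MANES_16G126900 (ESE3) stood at 14, 11.4, 23.3 and 1.67 in Hanoi on 7 August and at 0, 0, 0.701 and 0 in Bac Kan on 15 August (log2 difference -3.20 ± 0.58, adjusted p = 9.61e-05), and MANES_06G058200 (SHN1) at 4.13, 6.8, 5.62 and 0.535 in Hanoi on 7 August and at 0, 0.438, 0 and 0 in Bac Kan on 15 August (log2 difference -2.04 ± 0.37, adjusted p = 0.000101). In both genes all Hanoi libraries were higher, the lowest of them by little. The other tested SHN1, MANES_14G132700, differed between the dates in Bac Kan, with means of 2.3 on 31 May, 10.1 on 26 July and 0.649 on 5 October (adjusted p = 5.7e-06, limma F test over the 7 dates), and in Hanoi it was highest, at 10.8, on 7 August. MANES_04G114000 and MANES_11G055000 (SHN1) were not tested. Among 25 cuticle genes, 17 were tested. In late May 6 of them were higher and 3 lower in Bac Kan, 0 and 5 in July, 1 and 6 in August, and 5 and 2 in October. Their medians were -0.19, -0.27, -0.83 and 0.14. The share of all genes called in the same order was 28.7%, 8.84%, 14.5% and 24.2%. MANES_14G102100 (CER6, which elongates wax precursors) was in August at 327 to 606 in the Bac Kan libraries, with 839.6 to 2761 in those from Hanoi (-2.01 ± 0.28, adjusted p = 1.68e-06), and lower in July too (-1.96 ± 0.28, adjusted p = 8.25e-06). In October MANES_05G059900 (CER1, of alkane synthesis) was at 8.66 to 17.4 in the Bac Kan libraries, with 0.228 to 3.16 in those from Hanoi (2.48 ± 0.37, adjusted p = 2.04e-06).

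Group VI, the cytokinin response factors, had all 3 members tested. MANES_14G101900 (CRF11) was higher at the mountain site in late May, 33.8, 37.4, 37.3 and 49.9 against 20.5, 19.7, 18.3 and 22.7 (log2 difference 0.92 ± 0.20, adjusted p = 0.000488), and MANES_S034200 (CRF10) was lower in October, 2.58, 6.61, 3.11 and 1.86 against 7.5, 6.97, 16.7 and 9.91 (log2 difference -1.34 ± 0.44, adjusted p = 0.0236). The CRF10 call was lost at a pseudocount of 0.1 or without library 1 or 4 of Bac Kan on 5 October or library 3 of Hanoi on 10 October (adjusted p = 0.0588 to 0.156). The third, MANES_06G068900 (CRF11), passed in no pair.

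Group VII comprises the factors whose stability depends on oxygen in Arabidopsis and which turn on fermentation genes under hypoxia. All 3 members were tested, and all were low. MANES_03G199300 (RAP2.3) was at 0 in all 4 libraries of Hanoi on 13 July and at 2.9, 7.14, 1.66 and 4.14 in Bac Kan on 26 July (adjusted p = 0.0159). The July result was lost at a pseudocount of 5 or without library 2 of Bac Kan on 26 July (adjusted p = 0.0504 to 0.0671). In October it stood at 9.96, 7.97, 12.7 and 5.06 in Bac Kan on 5 October and at 1.15, 0.716, 6.5 and 1.31 in Hanoi on 10 October. The groups overlapped and Bac Kan was higher (log2 difference 1.75 ± 0.61, adjusted p = 0.0304). The October call was lost at a pseudocount of 0.1 or without any single library except library 4 of Bac Kan on 5 October or library 3 of Hanoi on 10 October (adjusted p = 0.0525 to 0.204). The other RAP2.3, MANES_15G009900, at 0 to 16.9 over all libraries, passed in no pair, and neither did MANES_01G222600 (HRE2). Of 27 hypoxia response genes 18 were tested. Higher and lower in Bac Kan were 2 and 2 in late May, 2 and 1 in July, 2 and 2 in August, and 1 and 2 in October. The medians were -0.03, 0.09, -0.26 and -0.14. Of all genes, 28.7%, 8.84%, 14.5% and 24.2% were called in these pairs. MANES_18G087000 (ADH1, alcohol dehydrogenase) was at 22.9 ± 10.2 in Bac Kan, with 112 ± 18 at the Hanoi field, in October (-2.34 ± 0.28, adjusted p = 3.45e-08). MANES_16G090600 (SUS4, sucrose synthase) was lower in Bac Kan in August, at 1.48 to 3.46 against 12 to 49.4 (-3.12 ± 0.35, adjusted p = 1.99e-08), and higher there in late May (1.83 ± 0.35, adjusted p = 9.39e-05).

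Group X had 6 of 9 members tested. In late May 1 of the 6 was called higher in Bac Kan and 1 lower, where 16.1% and 12.6% of all genes were. MANES_12G146000 (ABR1, a repressor of abscisic acid responses that is also wound-induced) was at 8.99, 5.42, 7.02 and 13.2 in Hanoi on 7 August and at 0.703, 0.431, 2.66 and 0.64 in Bac Kan on 15 August (log2 difference -2.24 ± 0.43, adjusted p = 0.000217), and at 6.53, 4.38, 5.36 and 8.65 in Hanoi on 10 October and at 0.587, 0.313, 0.816 and 0.265 in Bac Kan on 5 October (log2 difference -2.26 ± 0.43, adjusted p = 0.000106). In both pairs every Hanoi library was above every Bac Kan library. MANES_13G125100 (ERF114, known in Arabidopsis from shoot branching) was at 7.14, 5.21, 9.68 and 21.8 in Hanoi on 24 May and at 0 in all 4 libraries of Bac Kan on 31 May (adjusted p = 1.15e-08); outside Hanoi on 24 May it was above 0 in 2 of the 40 other libraries.

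Of the AP2 subfamily, which has 2 AP2 domains and includes floral and embryo regulators, 9 of 19 members were tested. MANES_07G101700 (AP2, known from flower development and the timing of flowering) was higher in Bac Kan in August, 13.7, 12.4, 11.8 and 9.63 against 3.25, 5.67, 4.46 and 6 (log2 difference 1.16 ± 0.26, adjusted p = 0.00123), and in July, 15.4, 19.1, 21.9 and 14 against 13.6, 3.34, 13 and 7.47 (log2 difference 0.98 ± 0.26, adjusted p = 0.0108). The groups did not overlap in either pair. The July call was lost with only the groups compared in the fit or without library 3 of Bac Kan on 26 July or library 2 of Hanoi on 13 July (adjusted p = 0.0504 to 0.232). Without that Hanoi library the difference was 0.61. In Bac Kan this gene was highest on 29 June, at 24.1, 24, 27.4 and 41.9, and it differed between the dates there (adjusted p = 9.04e-06). MANES_12G106400 (AP2) was at 0, 4.65, 5.28 and 0.973 in Hanoi on 10 October and at 0 in all 4 libraries of Bac Kan on 5 October (adjusted p = 0.00427; 0.0898 with only the groups compared in the fit), and MANES_13G120700 (AP2) passed in no pair. MANES_13G049600 (soloist, a factor with a diverged AP2 domain) was higher in Bac Kan in October, 14.1, 15.8, 9.15 and 11.6 against 4.24, 5.3, 6.65 and 5.76 (log2 difference 1.06 ± 0.26, adjusted p = 0.00196). With the most abundant transcript only, the soloist difference was 0.25 (adjusted p = 0.853).

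Both tested genes with best hit AT4G20880, an ethylene-regulated nuclear protein rather than a DNA-binding factor, followed the late May pattern. MANES_06G058700 stood at 89.3, 119, 118 and 149 in Hanoi on 24 May and at 12, 4.07, 2.57 and 8.46 in Bac Kan on 31 May. Every Hanoi library was above those from Bac Kan (log2 difference -4.10 ± 0.37, adjusted p = 7.25e-11), and the site difference changed between pairs (adjusted p = 7.75e-09). MANES_14G124700 was at 168, 258, 279 and 173 in Hanoi on 24 May and at 58.2, 30.9, 35.6 and 37.3 in Bac Kan on 31 May (log2 difference -2.41 ± 0.29, adjusted p = 4.16e-08). Of the 4 tested DRIP1 and DRIP2 genes, ubiquitin ligases for DREB2A, none passed in a pair.

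Within Hanoi the family varied strongly with date. The test over the 4 dates called 56 of the 84 (66.7%, against 50.4% of all genes), and between 24 May and 10 October 20 rose (23.8%, against 25.3%) and 23 fell (27.4%, against 17.2%), 51.2% in all against 42.5%. Among the 15 tested genes of group IX, 7 rose and 3 fell. Among the 9 of group VIII, 1 rose and 5 fell. The libraries of the 2 dates did not overlap for 11 members that rose and 18 that fell, where the background was 20.4% and 13.4% of all genes. These comparisons share the libraries of 24 May and 10 October with the site pairs, so the values below are the same libraries seen along the season. MANES_06G058700 (AT4G20880) fell, from a range of 89.3 to 149 on 24 May to one of 2.68 to 7.92 on 10 October (log2 difference -4.39 ± 0.37, adjusted p = 2.24e-12), and MANES_03G056100 (ERF017) from 25.4 to 68.9 down to a range of 0 to 1.19 (log2 difference -5.10 ± 0.53, adjusted p = 4.01e-10). MANES_03G044100 (ERF017) and MANES_17G048400 (ERF4) fell as well (log2 difference -3.80 ± 0.64, adjusted p = 7.59e-06, and -3.48 ± 0.61, adjusted p = 1.44e-05). In the other direction, both ERF106 genes rose: MANES_06G131300 from a range of 0 to 2.75 to one of 22.3 to 74.7 (log2 difference 4.83 ± 0.51, adjusted p = 6.24e-10) and MANES_14G038900 from a range of 2.6 to 22.3 to one of 132 to 155 (log2 difference 4.04 ± 0.32, adjusted p = 7.68e-13). For each of these 6 genes the libraries of the 2 dates did not overlap.

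Within Bac Kan the dates differed for 39 genes (46.4%, against 44.8% of all genes). The smallest p values belonged to MANES_14G132700 (SHN1), MANES_06G131200 (ERF105, adjusted p = 6.27e-06), MANES_12G087500 (ERF053, of the A-6 type, adjusted p = 6.52e-06) and MANES_07G101700 (AP2). ERF053 was highest on 15 August and 29 June, with means of 35.4 and 34.6, and lowest on 30 October, at 12. ERF105 was highest on 29 June, at 212, 489.9, 148 and 301, and lowest on 5 October, at 50.2, 56.9, 61.6 and 59.5.

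Between 31 May and 30 October in Bac Kan, 10 genes rose (11.9%, against 16.1% of all genes) and 5 fell (5.95%, against 9.8%), 17.9% in all against 25.9%. Without overlap between the 2 dates were 6 higher and 4 lower genes, with a background of 15.8% and 9.18%. These counts moved with the processing. With median-ratio scaling they were 5 and 6, while the share of higher calls among all genes went from 62.1% to 48.8% and the median of all genes from 0.10 to -0.01 (in Hanoi from 0.13 to 0.02); with the FPKM as deposited the split among all genes was 52.2%. The count of risen genes was 4 without library 2 or library 3 of 31 May, 5 without library 2 or library 4 of 30 October and 6 without its library 3, and that of fallen genes was 3 without library 1 and 2 without library 2 of 30 October. MANES_17G051600 (ERF1) rose from 2.49, 4.75, 0.484 and 0.593 to 6.09, 22.3, 20.8 and 14.1 (log2 difference 2.54 ± 0.66, adjusted p = 0.00316), with no overlap. The ERF1 call was lost at a pseudocount of 0.1 (adjusted p = 0.0717). MANES_12G047500 (soloist) rose from 6.15, 4.35, 6.26 and 9.79 to 25.5, 15.9, 55.8 and 30.7 (log2 difference 2.02 ± 0.47, adjusted p = 0.00109) and MANES_01G222600 (HRE2, a hypoxia-induced factor) from 3.59, 1.14, 3.92 and 3.42 to 10.2, 11.4, 13.2 and 8.16 (log2 difference 1.60 ± 0.53, adjusted p = 0.0211). The HRE2 call was lost at a pseudocount of 0.1 or without library 2 of Bac Kan on 31 May or library 3 of Bac Kan on 30 October (adjusted p = 0.0547 to 0.124). With the most abundant transcript only, the soloist difference was 0.68 and did not pass (adjusted p = 0.178). MANES_09G151900 (DRIP2) rose from 11.2, 6.06, 2.55 and 4.9 to 11.9, 23.3, 19.6 and 17.9 (log2 difference 1.52 ± 0.49, adjusted p = 0.0189). The DRIP2 call was lost at a pseudocount of 0.1, with the most abundant transcript only or without library 3 of Bac Kan on 31 May or library 2 of Bac Kan on 30 October (adjusted p = 0.0568 to 0.138).

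MANES_14G029600 (CBF4) fell from 22.9, 22, 0.963 and 6.48 on 31 May to 0.205 on average on 30 October, when 3 of the 4 libraries were listed at 0 (log2 difference -3.03 ± 0.81, adjusted p = 0.0041). MANES_13G143500 (ERF9) was at 45.1, 35.6, 4.76 and 17.5 and 39, 36.2, 67.7 and 51.7 on those dates (log2 difference 1.23 ± 0.46, adjusted p = 0.0424), but without library 3 of 31 May the difference was 0.61. The call was lost with no filter, with median-ratio scaling, with FPKM as deposited, with only the groups compared in the fit or without library 3 or 4 of Bac Kan on 31 May or library 3 or 4 of Bac Kan on 30 October (adjusted p = 0.0535 to 0.325).

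Ethylene, which induces many ERF transcripts, has its own synthesis and signalling genes, and 25 of 36 matched by best hit were tested. In Bac Kan 8 were higher and 4 lower in late May, 2 and 4 in July, 1 and 4 in August, and 3 and 8 in October. The medians were 0.19, 0.01, 0.06 and -0.33. Calls among all genes made up 28.7%, 8.84%, 14.5% and 24.2% in these pairs. MANES_14G133100 (EBF1, an F-box protein that removes the ethylene transcription factor EIN3) was at 69.9 ± 28.7 (mean ± SD, n = 4) in Bac Kan, with 11.4 ± 3.5 at the Hanoi field, in late May (2.48 ± 0.21, adjusted p = 1.43e-11), and at 44.8 ± 6.53 and 245 ± 31.5 in October (-2.42 ± 0.21, adjusted p = 1.23e-11). EBF1 thus turned from higher to lower in Bac Kan, as the ERF106 gene MANES_14G038900 did. MANES_12G069300 (ACO4, an oxidase of the last step of ethylene synthesis) was lower in Bac Kan in late May, 17.1 ± 4.64 against 63.1 ± 7.46 (-1.85 ± 0.26, adjusted p = 7.49e-07). In July ACO4 was called the other way, higher in Bac Kan. That July call was lost with only the groups compared in the fit (log2 difference 0.88, adjusted p = 0.114). It was also lost without library 1, 3 or 4 of Bac Kan on 26 July or library 2 or 4 of Hanoi on 13 July. MANES_03G167400 (ETR2, an ethylene receptor) was lower in July (-1.37 ± 0.40, adjusted p = 0.0247), August (-2.75 ± 0.40, adjusted p = 3.43e-06) and October (-1.92 ± 0.40, adjusted p = 0.000362). The July call of ETR2 was lost at a pseudocount of 5 or without library 1 or 2 or 4 of Bac Kan on 26 July or library 1 or 3 of Hanoi on 13 July (adjusted p = 0.0532 to 0.0873).

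The 52 AP2/ERF genes with other descriptions, 29 of them tested, are given here for comparison. In Bac Kan 5 were higher and 4 lower in late May, 2 and 1 in July, 3 and 5 in August, and 3 and 7 in October. Their medians were -0.13, -0.02, -0.03 and -0.24. The share of all genes called was 28.7%, 8.84%, 14.5% and 24.2% in the same order. MANES_02G154400 (RAP2.4, a group I factor of light and drought responses) was at 203 ± 80.5 in Bac Kan, with 762 ± 156 at the Hanoi field, in late May (-1.95 ± 0.20, adjusted p = 1.57e-09), and another RAP2.4, MANES_13G093300, was higher in Bac Kan in July, 252 ± 24.9 against 123 ± 20.1 (1.03 ± 0.20, adjusted p = 0.000515). MANES_04G150100 (RAP2.12, an oxygen-sensing factor of group VII) was lower in July, 38.1 ± 6 against 61.3 ± 19.4 (-0.63 ± 0.17, adjusted p = 0.0158). The July call of RAP2.12 was lost with the most abundant transcript only, with only the groups compared in the fit or without library 2 or 3 of Bac Kan on 26 July or library 1 or 2 of Hanoi on 13 July (adjusted p = 0.0571 to 0.511). With the most abundant transcript only, its July difference was -0.42. RAP2.12 was also called lower in August. That call was lost with only the groups compared in the fit (log2 difference -0.91, adjusted p = 0.0563). It was lost too with the most abundant transcript only (-0.88, adjusted p = 0.0705).

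Members often lie next to each other by ID number: 43 of the 152 fell into 18 blocks with ID numbers at most 200 apart, each of at most 3 members. Close copies may share reads, and how the authors' counting assigned such reads is not given in the sources used here. Neighbours did not all move together, as in the block of ERF1A, ERF105 and ERF106 (MANES_06G131100 to MANES_06G131300), where in August the outer genes were lower in Bac Kan and ERF105 differed by 0.05 (adjusted p = 0.961).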

How the data were processed

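Leaf RNA libraries (14 cycles of PCR, per the labels' protocols) were grouped by the site and date in their titles; the labels' site and date fields differ from the titles in 40 of the 44 samples and were not used, and for Bac Kan on 5 October the date came from the description. The authors deposited FPKM per transcript in 11 tables, aligned with TopHat2 per the submitters' processing notes. Its version, the quantification tool, the genome build and the read depth are not given in the sources used here, so the precision of each value rests on the 4 libraries. Not used was 1 column that repeats another's name. The columns carry no replicate number, so a library is numbered by its position in its table.

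From the deposited FPKM, transcripts were summed per gene ID (9 of the 152 genes have more than 1), each library was rescaled to 1000000, and log2(level + 1) was fitted with limma 3.58.1 (R 4.3.3), empirical Bayes with a mean-variance trend, over 11 group means. Kept were the 23405 genes that reached 1 in 4 or more of the 44 libraries. Tests were two-sided, with Benjamini-Hochberg adjustment over all genes kept. The fit was tested on simulated data. Alternatives were pseudocounts of 0.1 and 5, no filter and a filter at 5, median-ratio scaling, FPKM as deposited, the most abundant transcript only, only the groups compared, date means, omission of the late May pair, and omission of each library.

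Members and gene lists were chosen with earlier results of these data known. Named genes were, per comparison, up to 6 called members with the largest difference and a mean of 5 or more, the 4 smallest p of each F test, the 5 most abundant, chosen homologues (CBF1 to CBF4, RAP2.3, HRE2, ERF1, ERF4, SHN1, AP2, ORA47) and up to 3 genes per list; further members were named as examples of their subgroup after their values were seen.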

Additional observations from a re-analysis of the deposited data

Results flagged for a closer look

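In 8 of 46 groups of 4 libraries checked for the genes named above, 1 library stood far from the other 3. The cut-off flags about 1 group in 20 where values are normally distributed. That rate does not apply where the other 3 libraries are at 0, since any level above 0 is then flagged. The count of 8 is therefore not to be set against it. MANES_06G131100 (ERF1A) was at 537 in library 2 of Hanoi on 7 August, above the other 3, and MANES_06G131300 (ERF106) at 72.1 in library 1 of the same group. The other 6 concern low levels in Bac Kan. MANES_06G143100 (CBF4) was at 0.791 in library 1 on 15 August and at 1.12 in library 2 on 31 May, with the other 3 libraries at 0 in both cases. On 15 August MANES_12G146000 (ABR1) was at 2.66 and MANES_16G126900 (ESE3) at 0.701, both in library 3, the other 3 libraries of ESE3 being at 0. On 5 October MANES_16G111000 (TINY2) was at 0.510 in library 2 and MANES_18G075600 (DREB26) at 0.947 in library 4, the other 3 libraries being at 0 for both.

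For 4 genes the site difference changed between the 4 pairs with the smallest p of the family (limma F test, adjusted over all genes). They were MANES_14G038900 (ERF106, adjusted p = 6.05e-10), MANES_06G058700 (AT4G20880, adjusted p = 7.75e-09), MANES_06G131300 (ERF106, adjusted p = 1.42e-08) and MANES_13G143500 (ERF9, adjusted p = 3.93e-07).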

How the results depend on the processing

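Counts of called members that moved by more than 1.5 times did so under 7 settings. The late May count of higher genes, 5, was 3 with a pseudocount of 5, 8 with FPKM as deposited and 3 with only the groups compared. In July the count of higher genes was 6 instead of 3 with a pseudocount of 0.1, and in August 1 instead of 3 with only the groups compared. With the 11 date means as samples, the contrast was another one, 7 dates of Bac Kan against 4 of Hanoi without pairs. It had 0 higher and 0 lower, where the mean of pairs had 5 and 28. The smallest adjusted p of a member in that limma fit was 0.103. The change between pairs had 17 instead of 36 without the late May pair. For the season in Bac Kan the count of higher genes, 10, was 5 with a pseudocount of 0.1, with median-ratio scaling and with only the groups compared, and that of lower genes, 5, was 2 with only the groups compared; for the season in Hanoi 20 higher became 13 with only the groups compared. The cause of these shifts was not tested.

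Leaving out 1 library at a time gave 4 to 7 higher and 18 to 23 lower genes in late May, 1 to 3 and 3 to 4 in July, 1 to 3 and 9 to 11 in August, and 4 to 6 and 10 to 16 in October. The same gave 5 to 6 and 24 to 28 for the mean of pairs, 34 to 39 for the change between pairs, 31 to 39 for the dates in Bac Kan, 51 to 56 for those in Hanoi, 4 to 10 and 2 to 7 for the season in Bac Kan, and 16 to 19 and 22 to 25 for that in Hanoi. Of 144 results for single genes, which include every called difference of a pair or season, 80 kept their direction and their call under every alternative run, and none changed direction; of the 2650 values, 163 of those without a library and 92 of the others lost the call. No called member changed sign under either other scaling. No paired analysis was possible because the columns carry no replicate number that would tie libraries of one site to those of the other. Read depth is unknown, so levels near 0 cannot be told from genes missed at this depth.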
